A study of Homo sapiens with 2 samples.

Results

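The 9 casein kinase genes of a Wnt pathway array were examined in SW480 cells that overexpressed an inducible nitric oxide synthase and in SW480 cells with the empty vector. They were chosen by name, as every spot whose symbol starts with CSNK, and make up 9 of the 113 pathway genes on the array. SW480 cells come from a human colorectal adenocarcinoma and are an established line. The hiNOS group was the line labelled SW480iNOS-1, which carried hiNOS overexpression and GFP, and the GFP group was the line labelled SW480GFP-1, an empty vector control with GFP only. Both were stable lines sorted on GFP and grown for several weeks before total RNA was taken, and the labels do not say whether either line is a single clone. The series text describes separate RNA samples with repeated assays, but the tables used here hold 1 column of densities for each group, named as 1 array. No test was therefore possible, no value has a replicate, and every difference describes these 2 arrays. NOS2 is not among the array's genes, and neither are markers of colorectal epithelium, so the overexpression and the cell type could not be checked here.

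Casein kinases are serine and threonine kinases that fall into distinct families. Casein kinase 1 (CK1) enzymes are single-chain kinases that act at several steps of Wnt signalling. CK1 alpha places the priming phosphate on beta-catenin that precedes its phosphorylation by GSK3 and its destruction, CK1 delta phosphorylates Dishevelled, and the membrane-bound CK1 gamma forms phosphorylate the co-receptor LRP6. Casein kinase 2 (CK2) is built from catalytic alpha or alpha prime chains and a regulatory beta chain, and it phosphorylates beta-catenin, Dishevelled and LEF/TCF factors. SW480 cells carry a truncated APC protein, and beta-catenin accumulates in them.

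The values are spot densities in scanner units, with no background removed. The 2 blank spots averaged 12336 units on the hiNOS array and 12750 on the GFP array, and the biotinylated positive control averaged 49565 units on the hiNOS array and 50047 on the GFP array. Every density therefore lies on a range with a floor and a possible ceiling. The authors' software called 51 genes present on the hiNOS array and 53 on the GFP array. A density summarises a whole culture, so fewer cells with a transcript and less of it per cell cannot be told apart.

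Among the casein kinases, CSNK1D was brighter and CSNK1A1 and CSNK2A2 were dimmer on the hiNOS array, by 2.04-fold, 2.21-fold and at least 2.39-fold once background was subtracted. CSNK1A1L and CSNK1G1 were also brighter there but were called absent on the GFP array, CSNK1G3 and CSNK2B were modestly dimmer, CSNK1G2 lay near the positive control on both arrays, and CSNK2A1 was absent on both. In density, 4 of the 9 members were higher and 5 were lower with hiNOS, where 37.2% of all 113 pathway genes were higher and 62.8% were lower. Of the 6 CK1 genes 4 were higher and 2 were lower, and all 3 CK2 genes were lower. Among the higher CK1 genes, however, CSNK1G2 differed by only 79 units and CSNK1G1 by no more than genes absent on both arrays did. Of the CK2 genes, CSNK2A1 was absent on both arrays and CSNK2B differed by no more than genes absent on both did. The authors' calls put 7 members present with hiNOS and 6 with GFP. Both calls were present for 5 members, CSNK1A1L and CSNK1G1 were present with hiNOS alone, and CSNK2A2 was present with GFP alone. Of all 113 pathway genes, 45 were present on both arrays, 6 with hiNOS alone and 8 with GFP alone. None of the 9 spots was called bleeding on either array, that is, bright yet within 30% of its local background.

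**Figure D1:**
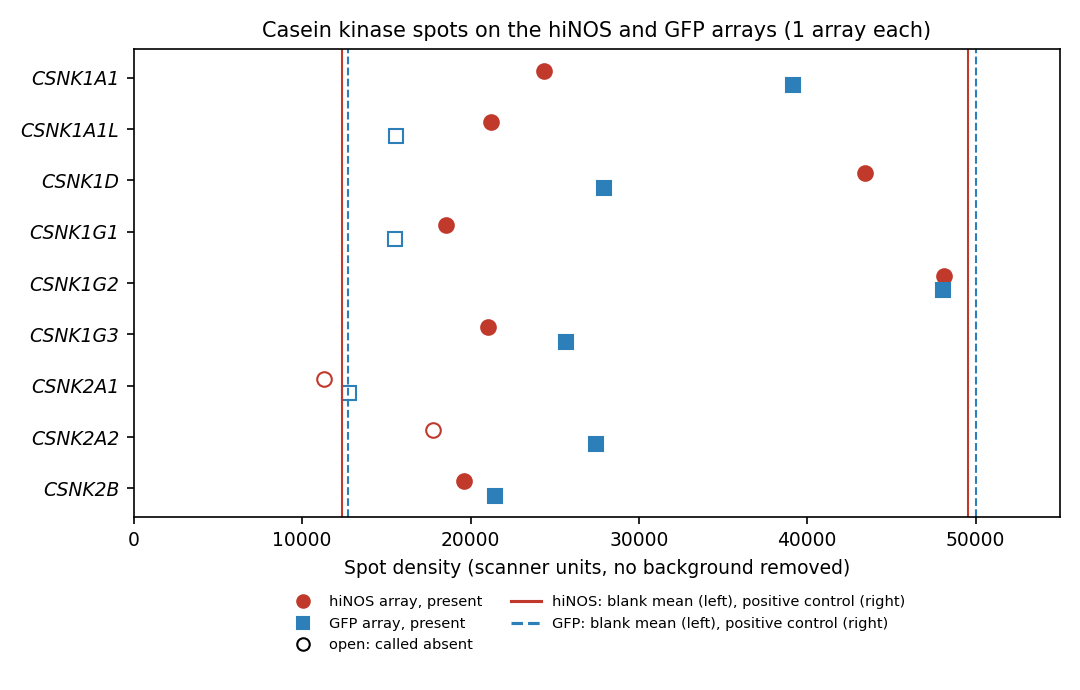
Spot density of the 9 casein kinase genes on the hiNOS array (red circles) and the GFP array (blue squares), in scanner units with no background removed, 1 array each. Open symbols were called absent, and vertical lines mark each array's blank mean and positive-control mean. CSNK1D lies to the right and CSNK1A1 and CSNK2A2 to the left on the hiNOS array, and both CSNK1G2 spots lie close to the positive control.

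The CK1 alpha genes are taken first. CSNK1A1 (NM_001892, chromosome 5, 149492982 to 149551439 in GRCh38.p14) encodes CK1 alpha, the kinase that primes beta-catenin within the destruction complex. Its density was 24344 units with hiNOS and 39171 units with GFP, and it was called present on both arrays. Once the blanks were subtracted, 12008 units were left with hiNOS and 26421 with GFP. As a share of the GAPDH and ACTB spots, which the series text names as the reference for scaling, that is 33.0% with hiNOS and 72.9% with GFP. These reference spots are near the positive control themselves. The 7 housekeeping spots that include them had 47624 to 49551 units with hiNOS and 47374 to 50151 with GFP. Whether spots this bright register a difference in scale between arrays was not tested, which limits every scaled share and ratio here. CSNK1A1 was thus 2.21-fold lower with hiNOS, a log2 ratio of -1.15 ± 0.09. The error here and below is the scatter of the 6 negative-control spots of each array carried through to the ratio, and it is not a replicate error. It leaves out the error of the blank mean and of the reference spots, so it may be too small. Among all 113 genes its density difference of -14827 units was the third from the bottom.

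CSNK1A1L (NM_145203, chromosome 13, 37103259 to 37105664) encodes a close homolog of CK1 alpha. Its density was 21231 units with hiNOS, where it was called present, and 15584 units with GFP, where it was called absent. Those values leave 8895 units above the blanks with hiNOS and 2834 with GFP, which is 24.4% of GAPDH and ACTB with hiNOS and 7.82% with GFP. The measured log2 ratio was 1.64 ± 0.21. Because the GFP spot was called absent, the size of the change has only a lower bound. Set against the faintest gene called present with GFP, CSNK1A1L was at least 1.42-fold higher with hiNOS. The log2 ratios of CSNK1A1L and CSNK1A1 lay 2.79 apart as measured and 1.65 apart with CSNK1A1L at its bound, a distance in which any common scaling of an array cancels. The transcripts of such homologs can share probe signal, and probe sequences were not used here, so both values are uncertain.

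The 250 bases before the annotated start of 4 members are printed because they belong to the alpha genes that differed in opposite directions and to the CK2 genes above background, both of which had lower densities with hiNOS. They are RefSeq sequences of GRCh38.p14, 5′ to 3′ on the gene's own strand. Capitals mark CCGGAAG or its reverse complement CTTCCGG, the core that ETS factors bind.
CSNK1A1, chr5:149551440-149551689, minus strand: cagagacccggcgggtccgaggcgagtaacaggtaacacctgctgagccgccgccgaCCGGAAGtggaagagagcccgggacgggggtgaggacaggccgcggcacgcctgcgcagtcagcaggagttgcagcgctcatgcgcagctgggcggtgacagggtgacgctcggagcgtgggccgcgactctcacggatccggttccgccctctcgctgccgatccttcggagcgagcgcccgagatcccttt
CSNK1A1L, chr13:37105665-37105914, minus strand: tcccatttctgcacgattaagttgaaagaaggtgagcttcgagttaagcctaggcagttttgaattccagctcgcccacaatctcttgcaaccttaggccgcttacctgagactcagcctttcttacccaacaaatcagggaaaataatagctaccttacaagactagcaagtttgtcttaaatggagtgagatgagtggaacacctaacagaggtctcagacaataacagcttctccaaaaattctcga
CSNK2A2, chr16:58198107-58198356, minus strand: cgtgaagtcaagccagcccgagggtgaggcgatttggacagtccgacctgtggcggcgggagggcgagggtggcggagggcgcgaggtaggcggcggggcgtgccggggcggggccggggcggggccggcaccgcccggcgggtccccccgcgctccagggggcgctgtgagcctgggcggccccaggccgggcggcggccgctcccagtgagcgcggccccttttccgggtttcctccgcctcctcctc
CSNK2B, chr6:31665830-31666079, plus strand: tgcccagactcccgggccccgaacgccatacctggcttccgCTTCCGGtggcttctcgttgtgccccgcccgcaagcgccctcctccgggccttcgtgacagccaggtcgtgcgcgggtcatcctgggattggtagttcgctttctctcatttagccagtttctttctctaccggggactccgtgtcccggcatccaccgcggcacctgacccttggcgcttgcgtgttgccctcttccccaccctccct
Windows were found for 7 of the 9 members, and the genes with no window were CSNK1D and CSNK1G2. The ETS letters stood in the windows of 4 of the 7, namely CSNK1A1, CSNK1G1, CSNK2A1 and CSNK2B, and in 8.52% of 35116 promoter windows of the same length. The latter share counts every promoter window, whereas members were read only at their annotated gene start. Nor was it matched for CG dinucleotides, which the ETS letters contain, so an excess among the members was not tested. The TCF/LEF letters CTTTGAT and CTTTGTT, sought on both strands, were in 0 of the 7 windows and in 2.26% and 4.5% of all windows. CSNK1A1 and CSNK1A1L differ plainly in these windows, with 31 and 5 CG dinucleotides against a median of 11 over all windows. Windows of CSNK2A2 and CSNK2B held 33 and 22. The genes with the ETS letters include ones that were brighter, dimmer and absent with hiNOS, and the letters describe these windows only.

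CSNK1D (NM_001893, chromosome 17, 82239019 to 82273750) encodes CK1 delta, which phosphorylates Dishevelled and also the PER proteins of the circadian clock. Its density was 43447 units with hiNOS and 27934 units with GFP, present on both. The difference of 15513 units was the highest of all 113 genes. After blank subtraction 31111 units were left with hiNOS and 15184 with GFP, or 85.4% and 41.9% of GAPDH and ACTB. CSNK1D was 2.04-fold higher with hiNOS (log2 ratio 1.03 ± 0.05), so it lies at the 2-fold line within its error. Its hiNOS spot stood at 87.7% of the positive control, just under the 90% used here to call a spot near the ceiling, and its GFP spot at 55.8%. The log2 ratios of CSNK1D and CSNK1A1 lay 2.17 apart after blank subtraction and 1.32 apart in density alone.

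The 3 CK1 gamma genes, whose products sit at the membrane and act on LRP6, did not share a direction. CSNK1G1 (NM_022048, chromosome 15, 64165525 to 64356173) had 18525 units with hiNOS, where it was called present, and 15520 units with GFP, where it was called absent. Its measured log2 ratio was 1.15 ± 0.24, but it allows no bound above 1-fold, because even its hiNOS value is no brighter than the faintest gene called present with GFP once scaled. On the hiNOS array CSNK1G1 was itself the dimmest gene called present. CSNK1G2 (NM_001319, chromosome 19, 1941172 to 1981338) had 48130 units with hiNOS and 48052 with GFP, and a log2 ratio of 0.01 ± 0.03. These spots stood at 97.1% of the positive control with hiNOS and at 96.0% with GFP. It is 1 of 19 genes near the ceiling on both arrays, whose log2 ratios ran only from -0.07 to 0.08, and the response of spots this bright was not tested. CSNK1G3 (NM_004384, chromosome 5, 123512177 to 123617049) had 21010 units with hiNOS and 25657 with GFP, present on both. After blank subtraction and scaling its hiNOS value was 0.669 of its GFP value, a log2 ratio of -0.58 ± 0.13. The summed density above the blanks of the 3 gamma genes was 50658 units with hiNOS and 50979 with GFP, most of it from the CSNK1G2 spot.

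Of the CK2 genes, CSNK2A2 differed most. It encodes the catalytic alpha prime chain (NM_001896, chromosome 16, 58157907 to 58198106). Its density was 17769 units with hiNOS, where it was called absent, and 27442 with GFP, where it was called present. Above the blanks that leaves 5433 units with hiNOS and 14692 with GFP, or 14.9% and 40.5% of GAPDH and ACTB. The measured log2 ratio was -1.44 ± 0.20, and its bound was at least 2.39-fold lower with hiNOS. That bound rests on CSNK1G1, the faintest gene called present with hiNOS. CSNK2A2 was the brightest gene called absent there, so the call divides these 2 members by 757 units. Across the 8 pairs of duplicate spots, counting each array, the same probe or blank differed by 57.1 to 1256 units, so this gap is no wider than the spread between duplicates. Those duplicates are blanks and bright control spots, none of them at the density of these members. The widest gap, 1256 units, lay between the 2 blanks of the hiNOS array, whose mean is subtracted from every hiNOS spot.

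CSNK2A1 encodes the main catalytic alpha chain (NM_001895, chromosome 20, 472498 to 543790) and was called absent on both arrays. It had 11315 units with hiNOS and 12786 with GFP, just under the range of the negative controls with hiNOS (11408 to 13214 units) and just over it with GFP (11986 to 12779 units). No fold is given. The authors' deposited table nevertheless lists it as under-expressed at a ratio of -30.1. That number is the quotient of -1021 units relative to the blanks with hiNOS and 35.7 units with GFP, each scaled by the authors' reference.

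CSNK2B encodes the regulatory beta chain that assembles the CK2 holoenzyme (NM_001320, chromosome 6, 31666080 to 31670067). It had 19639 units with hiNOS and 21445 with GFP and was present on both. It was 1.20-fold lower with hiNOS, with a log2 ratio of -0.26 ± 0.16. The log2 ratio of CSNK2B lay 1.18 above that of CSNK2A2. Summed over the 3 CK2 spots, density above the blanks was 11715 units with hiNOS and 23423 with GFP, whereas over the 6 CK1 spots it was 102672 units with hiNOS and 95418 with GFP. These sums add spots of unequal probes and are dominated by the brightest of them. The CK2 sums also take in CSNK2A1, absent on both arrays, at -1021 units with hiNOS and 35.7 with GFP.

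**Figure D2:**
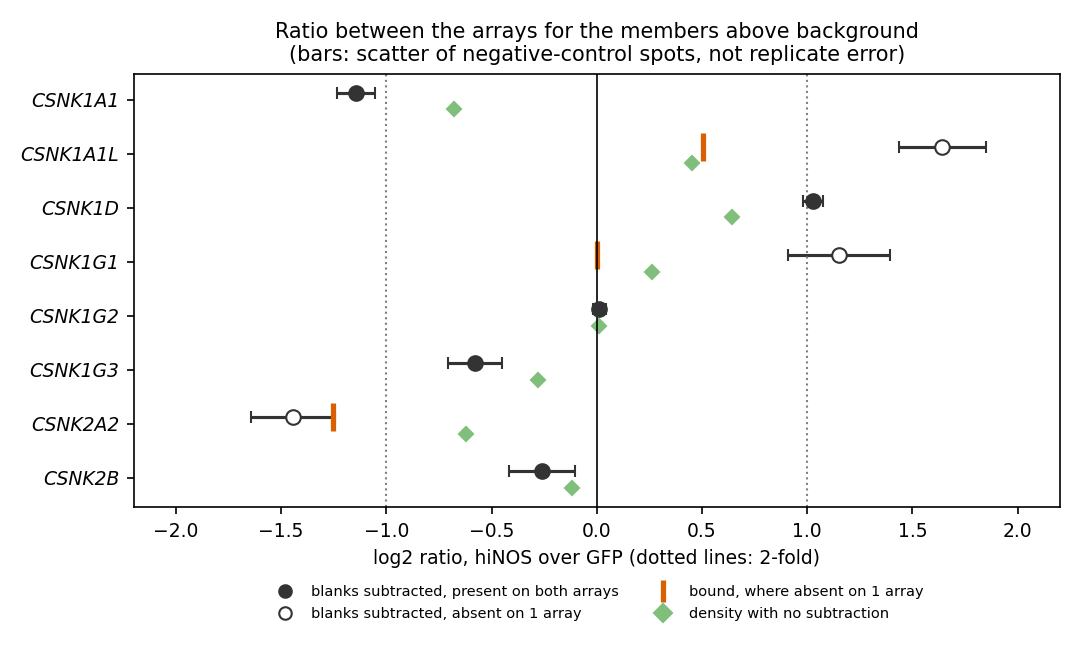
Log2 ratio of hiNOS over GFP for the 8 casein kinase genes called present on at least 1 array. Circles are ratios after blank subtraction, filled where both arrays were called present, with bars for the scatter of negative-control spots, orange ticks are bounds, and green diamonds are ratios of density alone. CSNK1A1 and CSNK2A2 lie left of the 2-fold line and CSNK1A1L, CSNK1D and CSNK1G1 right of it, while all green diamonds lie within 2-fold.

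Put together, 3 of the 8 members above background were 2-fold higher and 2 were 2-fold lower with hiNOS by the measured ratio. Over all 59 pathway genes called present on at least 1 array, 10.2% were 2-fold higher and 18.6% were 2-fold lower, so 28.8% lay beyond 2-fold either way. When every gene missing a present call on 1 array was held at its bound, 1 member was 2-fold higher (CSNK1D) and 2 were lower (CSNK1A1 and CSNK2A2), where the array gave 5.08% higher and 10.2% lower. The members' median log2 ratio was -0.12, against -0.01 for all 59 genes, and it hides the split. The ratios ran from -1.44 to 1.64, inside the range of -2.25 to 2.79 for all genes. The 6 CK1 genes had a median of 0.52 as measured and of 0.01 at their bounds, and the 2 CK2 genes above background had medians of -0.85 and -0.76. In order of measured log2 ratio from the highest, CSNK1A1L was at place 2, CSNK1G1 at 4, CSNK1D at 6, CSNK1G2 at 25, CSNK2B at 45, CSNK1G3 at 47, CSNK1A1 at 50 and CSNK2A2 at 51 of 59.

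In units of density, 8 of the 9 members differed by more than any of the 6 negative-control spots, whose differences ran from -1014 to 878 units, as did 53.1% of all 113 genes. The 54 genes absent on both arrays ran from -4169 to 3648 units. By more than the larger end, either way, 5 members differed, as did 22 (19.5%) of all 113 genes. The members were CSNK1A1, CSNK1A1L, CSNK1D, CSNK1G3 and CSNK2A2. Because the 54 set that limit, they could not pass it. All 22 were therefore among the 59 genes called present on at least 1 array. CSNK1G1, CSNK1G2, CSNK2A1 and CSNK2B lay inside that range, CSNK2A1 by definition as 1 of the 54.

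**Figure D3:**
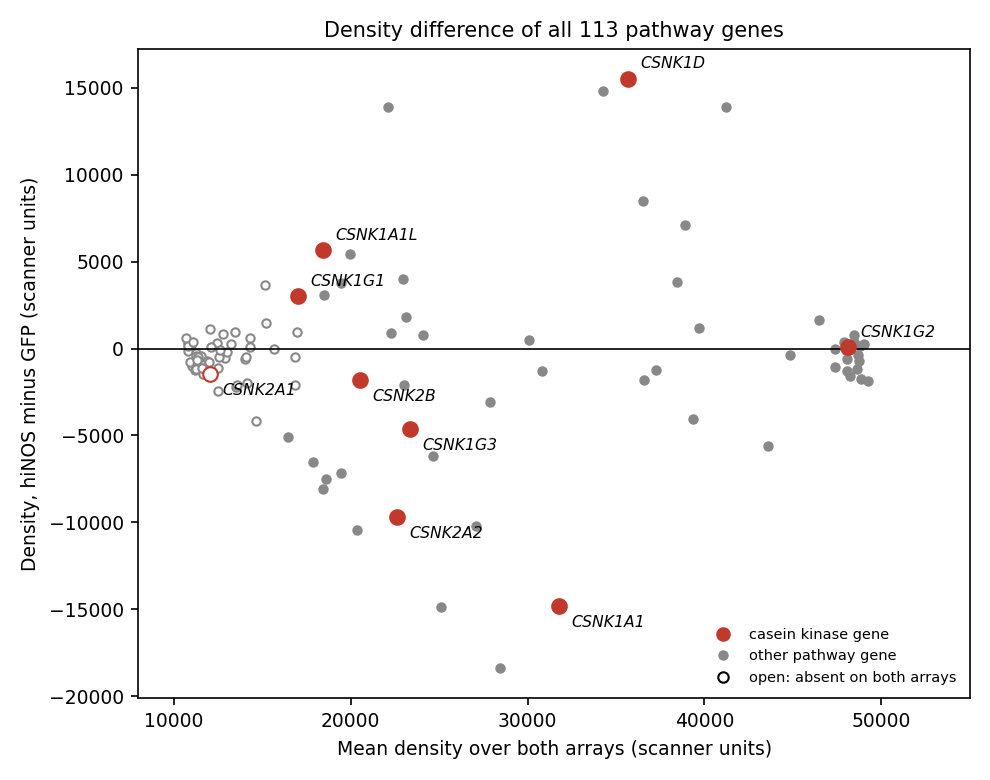
Density on the hiNOS array minus density on the GFP array, plotted against the mean density over both arrays, for all 113 pathway genes. Casein kinase genes are red and named, and open symbols were absent on both arrays. CSNK1D is the highest point at 15513 units, CSNK1A1 is the third lowest at -14827 units, and CSNK1G2 sits with the bright spots close to 0.

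The order of the spots by density also differed between the arrays, though probes differ in brightness and this order is no order of transcript levels. On the hiNOS array it was CSNK1G2, CSNK1D, CSNK1A1, CSNK1A1L, CSNK1G3, CSNK2B, CSNK1G1, CSNK2A2 and CSNK2A1. On the GFP array it was CSNK1G2, CSNK1A1, CSNK1D, CSNK2A2, CSNK1G3, CSNK2B, CSNK1A1L, CSNK1G1 and CSNK2A1. CSNK1D lay 19104 units above CSNK1A1 with hiNOS, while with GFP CSNK1A1 lay 11237 units above CSNK1D. Of the 16 steps between neighbours in these orders, 5 were no larger than the widest gap between duplicate spots. With hiNOS these were CSNK1A1L to CSNK1G3, CSNK2B to CSNK1G1 and CSNK1G1 to CSNK2A2, and with GFP they were CSNK1D to CSNK2A2 and CSNK1A1L to CSNK1G1.

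Of the 9 members, 6 appear in the authors' deposited table of over- and under-expressed genes. How many of all 113 genes it lists was not counted here, so no excess of members is read from it. On the authors' deposited values, 6 of the 59 genes called present on at least 1 array were 2-fold higher and 10 were 2-fold lower. Of the members, 3 were higher and 2 were lower on those values. It gives ratios of hiNOS over GFP of 3.31 for CSNK1A1L, 2.36 for CSNK1G1 and 2.16 for CSNK1D as over-expressed, and of 0.479 for CSNK1A1, 0.390 for CSNK2A2 and -30.1 for CSNK2A1 as under-expressed. Those ratios rest on the same spots and on another reference, the middle 64 of the 128 spots, so they are no second measurement. The deposited values themselves were 4.0 with hiNOS and 1.85 with GFP for CSNK1D, and 1.54 with hiNOS and 3.22 with GFP for CSNK1A1.

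Genes at the steps where casein kinases act were described as a list of 22: beta-catenin, the destruction complex and its ubiquitin ligase, PP2A subunits, Dishevelled and its regulators, LRP co-receptors and HMG-box factors. It does not hold every gene of these classes on the array: PPP2CB, PPP2R1B, TCF7, TCF7L2, SOX17, DIXDC1 and CXXC4 are among those outside it. On at least 1 array 13 of the 22 were called present, as were 59 of all 113 genes. Of the 13, 2 were 2-fold higher and 2 were 2-fold lower with hiNOS, against the array's 10.2% and 18.6%. The median log2 ratio of the 13 was 0.02. NKD1, a Dishevelled-binding antagonist, had 41641 units with hiNOS and 26857 with GFP and was 2.07-fold higher. CTNNB1, which encodes beta-catenin, had 22673 units with hiNOS and 17226 with GFP. It was called absent with GFP and was at least 1.65-fold higher. APC2, a homolog of APC, had 19254 units with hiNOS and 37643 with GFP and was 3.62-fold lower. PPP2CA, a catalytic subunit of PP2A, had 14570 units with hiNOS, where it was called absent, and 21117 with GFP, and was at least 1.36-fold lower. Held at the same bounds, NKD1 alone remained 2-fold higher and APC2 alone 2-fold lower, where the array gave 5.08% higher and 10.2% lower. The remaining 9 of the 22, among them APC, GSK3B, LRP5, LRP6 and LEF1, were absent on both arrays.

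How far each casein kinase difference depends on the treatment of background is shown by recomputing it under other settings. Without blank subtraction 0 of the 8 members were 2-fold different, since a constant floor under both spots draws a ratio towards 1. CSNK1D was then 1.56-fold higher, CSNK1A1 1.60-fold lower and CSNK2A2 1.54-fold lower with hiNOS, the last at least 1.47-fold. CSNK1D also did not reach 2-fold with normexp, at a log2 ratio of 0.92, and with the lowest negative control subtracted, at 0.99. CSNK1A1 did not reach it when scaled by the median gene, at -0.87, and CSNK2A2 with quantile normalization, at -0.96. Counting only the 11 other settings that can alter a ratio, or 12 with the bound for members absent on 1 array, CSNK1A1L passed 2-fold in 10 of 12 and CSNK1G1 in 7 of 12. CSNK1A1 and CSNK1G3 were lower in all 11, and CSNK1D was higher in all 11. CSNK2A2 was lower and CSNK1A1L higher in all 12. CSNK2B was lower in 9 of 11, and CSNK1G2 changed sign around 0 in 2 of 11.

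**Figure D4:**
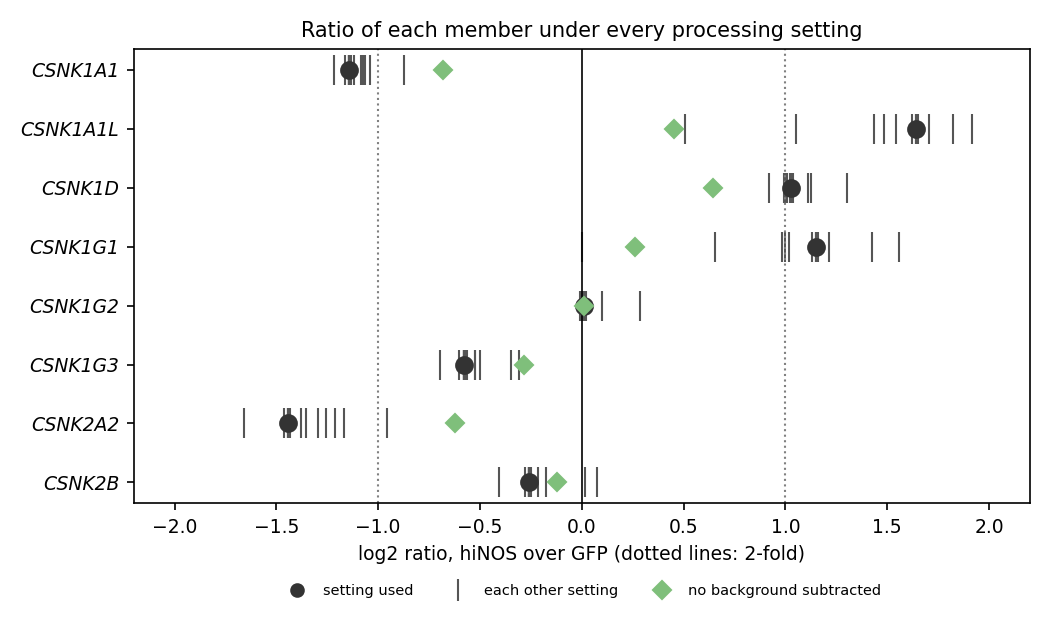
Log2 ratio of hiNOS over GFP of each of the 8 members under every processing setting. Black circles are the setting used in the text, ticks the other settings, and green diamonds density with no background subtracted. CSNK1A1, CSNK1G3 and CSNK2A2 stay left of 0 and CSNK1A1L and CSNK1D right of it, while the green diamonds lie nearest to 0 for most members.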

How the data were processed

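RNA of 1 hiNOS line and 1 GFP line was hybridised as biotin-labelled cRNA to an Oligo GEArray of Wnt pathway genes. The series text describes separate RNA samples with repeated assays, but 1 column of densities per line was analysed here. Per the series text, the authors imaged arrays by autoradiography and took density from the scans with the array maker's software. Per the file headers, the deposited intensity is an average density, given for 128 spots, and the blank spots show that it still holds a background. Another deposited intensity table equals density minus the blank mean, over the mean of the middle 64 spots, for every value to within 0.005. The authors' list of genes beyond 2-fold holds the ratio on that scale and was read as a score, since it turns negative for spots under the blanks. The last deposited intensity table averages both arrays and gave only accessions and descriptions. Per the file headers, a spot was absent when it did not reach 1.5 times a mean of local backgrounds, taken over the lower 75 percentile of spots without bleeding.

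Here the mean of the 2 blanks was subtracted, spots were divided by the 3 GAPDH and ACTB spots, the reference in the series text though not in the file headers, and hiNOS was set over GFP. A gene called absent on 1 array was bounded by dividing its present value by its absent value or, if higher, by the faintest gene called present on that other array. Genes past 2-fold were counted. The blank subtraction, the members, the partner list and the motifs were chosen with earlier results of these data known. All 9 members were named, and of the partner list those past 2-fold. Accessions of 9 members matched RefSeq GRCh38.p14. Alternatives changed background, scaling, filter, bright spots and threshold. The ratio step was tested on simulated data in which every spot was called present and no ceiling was set. That test does not cover bounds or spots near the positive control. Python 3.11.15, matplotlib 3.10.9, R 4.3.3 and limma 3.58.1 (normexp, offset 50) were used. The number of arrays limits the precision.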

Additional observations from a re-analysis of the deposited data

How the results depend on the processing

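No paired analysis was possible because the groups hold a single array apiece, and no replicate could be left out. Of 91 member ratios under settings that can alter a ratio, 61 moved by no more than the error from the negative controls, 30 moved further, and 4 turned sign, all of them CSNK1G2 or CSNK2B. Counts of members past 2-fold (3 higher, 2 lower) differed with no background subtracted (0 and 0), normexp (1 higher), genes present on both arrays (1 and 1), bounds in place of measured ratios (1 higher), the lowest negative control subtracted (1 higher), the highest subtracted (2 higher, without CSNK1G1 at 0.98), the median pathway gene (1 lower) and quantile normalization (1 lower). The members' median of -0.12 was 0.15 with the median pathway gene and 0.036 with quantile normalization, so no direction is given for it. For all genes (6 higher, 11 lower), counts were 0 and 0 with no background subtracted and 2 higher and 10 lower with normexp. They were 10 higher and 15 lower with no filter, and the same with present set by the highest negative control. At 1.5-fold they were 10 higher and 12 lower. Over genes present on both arrays they were 2 higher and 3 lower, and at bounds 3 higher and 6 lower. The median pathway gene as reference shifted all genes alike by 0.27, and the median of all genes to 0.27. For the partner list (2 higher, 2 lower) counts were 0 and 0 with no background, 0 higher with normexp, 1 and 1 over genes present on both arrays and 1 and 1 at bounds, and its median was 0.30 with the median pathway gene and 0.11 on the deposited values. The rule of presence on both arrays leaves out genes called absent on 1 array and keeps 45 of the 59. Of those 45, 2 were higher and 3 lower, against 6 and 11 of the 59, and why was not tested. A floor lowers the counts with no background, and for the other settings the cause was not tested. Subtracting the lowest or the highest negative control was added after the data were seen. Signal over background limits CSNK2A1 and, on 1 array, CSNK1A1L, CSNK1G1 and CSNK2A2. Closeness to the positive control limits CSNK1G2 and also the GAPDH and ACTB spots used as the reference.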
